A study of Arabidopsis thaliana with 84 samples.

Results

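The UDP-glycosyltransferases encoded by UGT genes form a large enzyme family that moves a sugar from a UDP-sugar onto small molecules such as plant hormones, phenylpropanoids, flavonoids and defence compounds. Adding the sugar usually makes the acceptor more soluble and less active and allows it to be stored in the vacuole. The family is numbered by sequence likeness, so that genes with the same number belong to 1 subfamily, and each subfamily tends to have its own acceptors. In roots these enzymes are known for adjusting pools of abscisic acid, auxin, cytokinin and salicylate and for storing monolignols, the building blocks of lignin.

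The members are all genes with a probe set of their own in the platform annotation whose symbol starts with UGT followed by a number. That rule gave 47 genes on 47 probe sets, out of 22810 probe sets on the array and 13513 that the annotation pairs with 1 gene. Subfamily 71 held 9 of them, 76 held 8, 73 held 7, 84 and 85 held 5 each, 72 held 4, 74 and 78 held 3 each, and 80, 87 and 88 held 1 each. The symbol of every member equals its symbol in the RefSeq gene table (TAIR10.1). Another 3 probe sets carry a UGT symbol together with a second gene (UGT73B2 with UGT73B3, UGT71D1 and UGT89B1 each with another locus) and were not used. None of the 47 probe sets has a name of the kind the manufacturer gives to probe sets shared between genes. Signals of different probe sets cannot be ranked against each other, so each member was compared only with itself across arrays. Of the 47, 41 passed the filter on low signals in the sorted cells and 36 in roots and protoplasts. The 6 that passed neither were UGT73C1, UGT73C2, UGT76E1, UGT76E11, UGT76E12 and UGT84B1, and their log2 signals in the sorted cells lay between 4.29 and 6.59, against a filter limit of 6.49.

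The study measured the nitrogen response of Arabidopsis thaliana Col-0 roots on 84 ATH1 arrays, 28 groups of 3 biological replicates. Plants aged 12 days, grown with ammonium succinate as the only nitrogen source, received 5 mM KNO3 or, as the control, 5 mM KCl for 2 h. Enzymes then dissolved the cell walls, and 5 populations were separated by fluorescence. LRC is the lateral root cap, the flanking part of the cap around the root tip, EpiC the epidermis with the cortex, EndoP the endodermis with the pericycle, Peri the pericycle and Stele the stele, each with continuous nitrate (KNO3 kept in the digestion solution), transitory nitrate (KNO3 left out of it) and KCl. Further Peri groups received 5 mM KNO3 with 1 mM methionine sulfoximine (MSX) and 5 mM glutamine, 5 mM KNO3 with 1 mM MSX, or 5 mM KCl with 1 mM MSX, all for 2 h. MSX is an inhibitor of glutamine synthetase, the enzyme that takes up ammonium into glutamine. Unsorted protoplasts and whole roots incubated in the digestion solution without enzymes each had the groups continuous nitrate, transitory nitrate and KCl. Whole roots frozen directly were treated with KNO3 or KCl for 3.5 h or for 2 h. The fluorescent line behind each sorted population is not given in the sources used here, and EndoP and Peri share the pericycle by their labels.

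RNA of the sorted cells was amplified in 2 cycles and that of roots and protoplasts in 1 cycle, and the 2 sets were analysed apart. Of the 30 one-cycle arrays, 4 had a median correlation of 0.283 to 0.559 with the others, against 0.738 to 0.927 in the 26 that were used. Their plant GAPDH 3′ probe sets read 5.42 to 7.18, against 8.71 to 11.09 in the used arrays. This left 2 arrays of whole roots in KCl for 2 h, 2 of roots incubated in continuous nitrate and 1 of roots incubated in KCl. One sorted array, EndoP in transitory nitrate replicate 1, had a median correlation of 0.572 with its own population, against 0.667 to 0.963 in the other 53. It was kept in the main fits. Few defining markers could be checked against the sort labels. None of the listed LRC or Peri markers had a probe set of its own, and in EpiC the root hair gene EXPA7 was lower than in the other 4 populations (difference in log2 signal of -1.31, adjusted p = 0.0075), whereas AED3 was higher by 1.01 (adjusted p = 0.00197). GSO1, an endodermal receptor kinase, was higher in EndoP by 0.58 (adjusted p = 0.0366) and in Peri by 0.74 (adjusted p = 0.0297), and lower in LRC (difference -1.53, adjusted p = 5.1e-07). The stele gene LHW was not called in Stele (0.34, adjusted p = 0.332). In bulk samples fewer cells of a type and less RNA per cell cannot be told apart.

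The first comparison asked where in the root the family is expressed. Of the 41 members tested, 32 differed between the 5 populations by limma's moderated F test with Benjamini-Hochberg adjustment at 0.05 (78% of the members), against 64.2% of all 19258 probe sets tested. Differences below are in log2 signal, quantile normalized, where 1 stands for a 2-fold change. Each is the mean of a population's 9 arrays minus the mean of the other 4 populations, with limma's standard error. Because each population is part of what the others are set against, high levels in 1 population lower the differences of the rest. In LRC 25 members were called, 16 higher and 9 lower, against 43.6% of all probe sets, 20.3% higher and 23.4% lower. In EpiC 13 were higher and 5 lower, against a background of 33.6% (16.5% higher and 17% lower). In EndoP 8 were higher and 11 lower, against 38.6% (18.7% and 19.8%). In Peri 8 were higher and 1 lower, against 8.35% (3.57% and 4.79%), and in Stele 3 were higher and 17 lower, against 22.2% (11.1% in each direction). The members' median difference in Stele was -0.38, beside 0.01 over all probe sets, and 35 of 41 members had a difference below 0 there. Of 6 green tissue markers, genes of photosynthesis that mark other tissue than root, 5 were also lower in Stele (median difference -1.12, LHCB4.1 -1.62, adjusted p = 4.72e-06). The same markers were higher in LRC in 3 of 6 and in EpiC in 4 of 6, lower in EndoP in 1 of 6 and not called in Peri. Their mean log2 level per array was 6.87 to 8.67 in LRC, 6.4 to 10 in EpiC, 6.52 to 7.66 in EndoP, 6.77 to 8.39 in Peri and 6.14 to 6.57 in Stele, and their part in the members' differences was not tested.

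**Figure D1:**
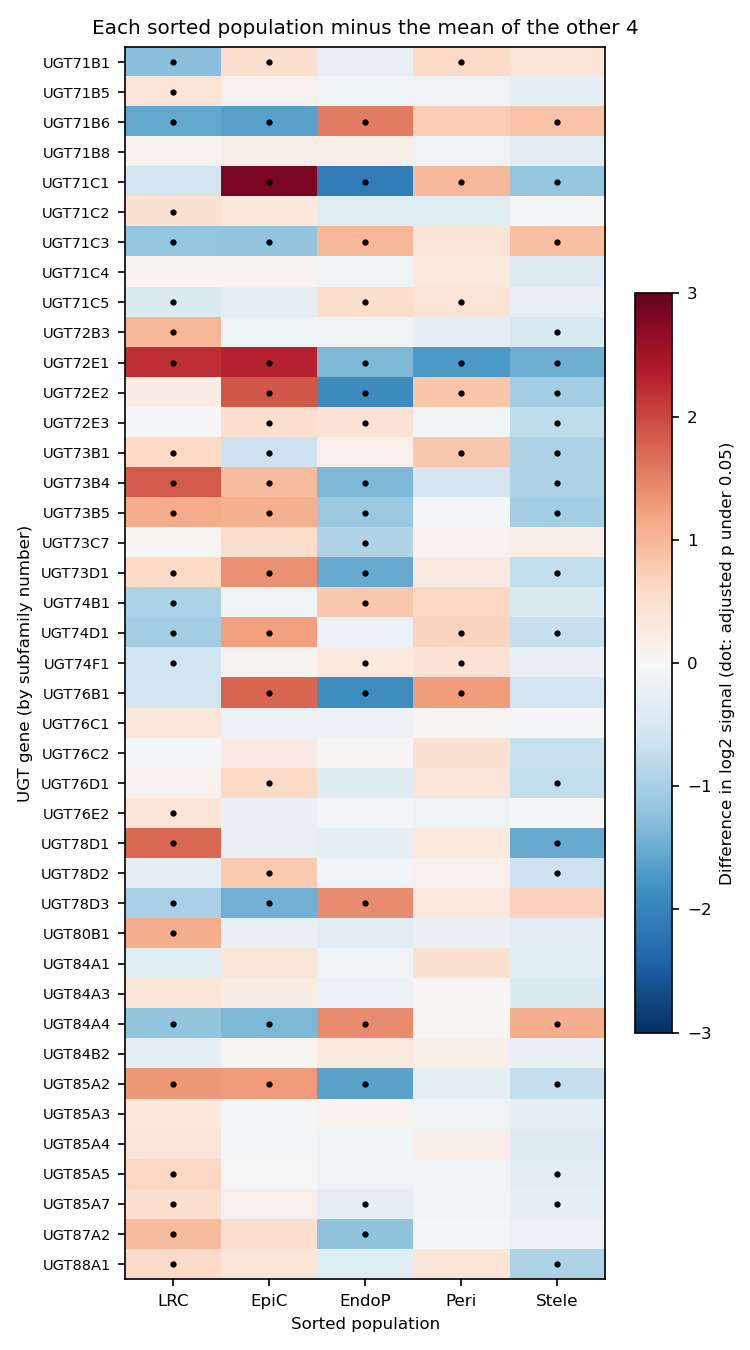
Difference in log2 signal of each sorted population from the mean of the other 4 (columns) for the 41 UGT genes tested, by subfamily number (rows). Red is higher, blue is lower, and a dot marks an adjusted p under 0.05. UGT72E1, UGT73B4, UGT73B5, UGT73D1 and UGT85A2 are red in LRC and EpiC and blue in EndoP and Stele, while UGT71B6, UGT71C3, UGT78D3 and UGT84A4 show the opposite colours.

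Several members shared a pattern over the populations. The patterns were put together from the members' own calls, so the shares and correlations below describe them and are no test of the family. In the outer one, 5 of 41 members (12.2%) were higher in both LRC and EpiC and lower in both EndoP and Stele, as were 3.12% of all probe sets tested. The green tissue markers that were called had the same directions, but in EndoP only LHCB4.2 was called. Their part in this pattern was not tested. The 5 members were UGT72E1, UGT73B4, UGT73B5, UGT73D1 and UGT85A2. UGT72E1, which glucosylates monolignol aldehydes, had the smallest p of the family. Its log2 signal had a lowest, median and highest value of 8.69, 9.71 and 10.82 in LRC and of 9.31, 9.73 and 10.34 in EpiC. In EndoP these values were 6.28, 6.90 and 7.65, in Peri 5.80, 6.70 and 7.20, and in Stele 6.08, 6.44 and 9.35. All 18 LRC and EpiC arrays were above every EndoP and Peri array, and only 1 of the 27 arrays of the other populations, a Stele array in transitory nitrate at 9.35, reached into their range. The differences were 2.21 ± 0.23 in LRC and 2.31 ± 0.23 in EpiC (adjusted p = 1.4e-10 and 8.88e-10), and -1.34 in EndoP, -1.72 in Peri and -1.46 in Stele, all called.

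UGT73B4 and UGT73B5 lie next to each other on chromosome 2, and UGT73B5 is known for a role in the response to pathogens and redox stress. UGT73B4 stood at 9.77 to 10.86 in LRC and 9.19 to 10.29 in EpiC, against 6.89 to 8.70 in EndoP, 7.62 to 9.55 in Peri and 7.10 to 9.41 in Stele. Of the 27 inner arrays, 3 reached the lowest LRC or EpiC value. The difference was 1.83 ± 0.20 in LRC and 0.94 ± 0.20 in EpiC (adjusted p = 3.29e-10 and 0.000346). UGT73B5 stood at 7.47 to 8.88 in LRC and 7.53 to 8.93 in EpiC, against 6.08 to 7.13 in EndoP, 6.04 to 8.55 in Peri and 6.03 to 7.09 in Stele. Here EndoP and Stele lay wholly below LRC and EpiC, while Peri spanned both ranges. Over the 18 group means of the sorted cells the neighbours correlated at r = 0.83. For orientation, the median r over all 820 pairs of the 41 members was 0.26, and these points share arrays and normalization.

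UGT85A2, of the subfamily that holds the zeatin glucosyltransferase UGT85A1, was higher in LRC by 1.30 and in EpiC by 1.27 and lower in EndoP (difference -1.60, adjusted p = 1.66e-07). It sits in a run of 4 neighbouring 85A genes on chromosome 1 that did not follow it equally. Its group means correlated with those of UGT85A7 at r = 0.86, with UGT85A5 at 0.54 and with UGT85A3 at -0.01. UGT73D1 was higher in EpiC by 1.38 ± 0.21 and in LRC by 0.59 ± 0.21 and lower in EndoP (difference -1.50, adjusted p = 1.04e-06). It correlated with its neighbour UGT73C7 at r = 0.86.

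**Figure D2:**
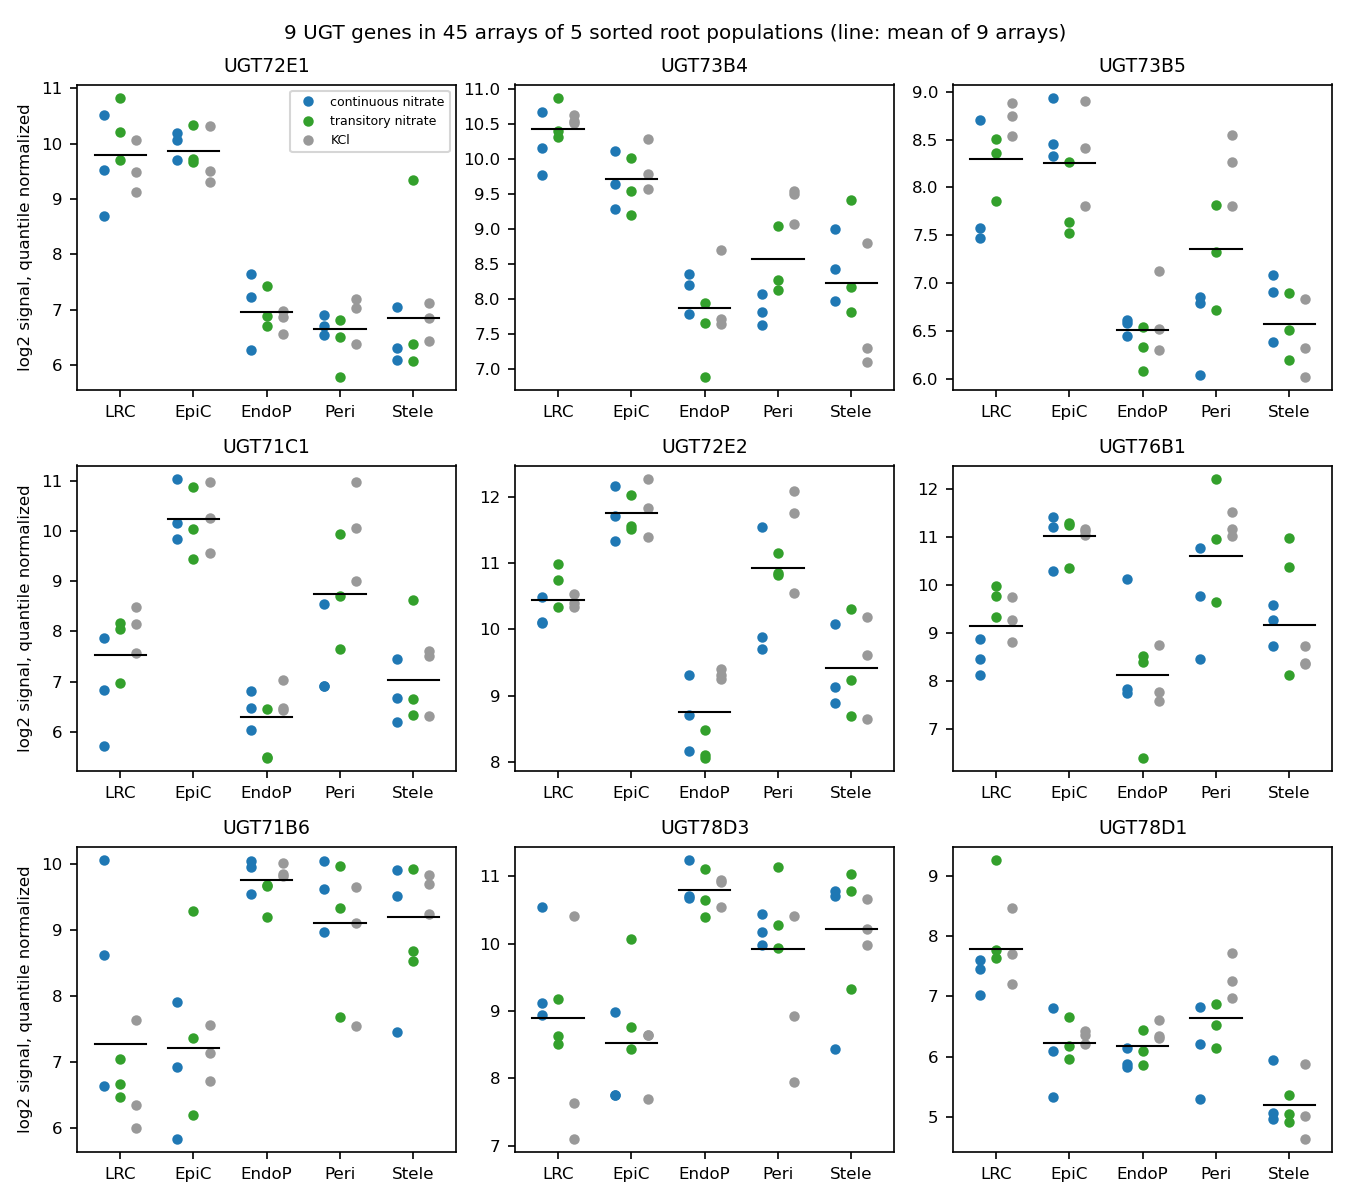
Log2 signal (y axis, quantile normalized) of 9 UGT genes in each array of the 5 sorted populations (x axis). Points are arrays, blue for continuous nitrate, green for transitory nitrate and grey for KCl, and the line is the mean of 9 arrays. UGT72E1 separates LRC and EpiC from the other populations but for 1 Stele array, UGT71C1 is highest in EpiC, and UGT71B6 is high in EndoP, Peri and Stele.

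In the second pattern members were higher in EpiC and in Peri but not in EndoP, although EndoP also holds pericycle by its label. It held 5 of 41 members (12.2%), UGT71B1, UGT71C1, UGT72E2, UGT74D1 and UGT76B1, and 0.576% of all probe sets tested. UGT71C1, which acts on phenylpropanoids and flavonoids, had a lowest, median and highest value of 9.45, 10.16 and 11.03 in EpiC. These values were 6.92, 8.71 and 10.98 in Peri, 5.72, 7.87 and 8.49 in LRC, 6.21, 6.68 and 8.62 in Stele and 5.49, 6.46 and 7.02 in EndoP. Every EpiC array lay above every LRC, Stele and EndoP array, and only Peri overlapped it. The difference of 2.84 ± 0.27 in EpiC (adjusted p = 1.93e-10) had the greatest size of any member in any population. Peri was higher by 0.97 ± 0.27 (adjusted p = 0.015), a call lost without Peri KCl replicate 3 (adjusted p = 0.073), and EndoP was lower (difference -2.09).

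UGT72E2, the main glucosyltransferase of monolignols in roots, stood at 11.33 to 12.26 in EpiC and 9.71 to 12.08 in Peri, against 10.10 to 10.99 in LRC, 8.66 to 10.31 in Stele and 8.07 to 9.40 in EndoP. The EpiC arrays were above all LRC, Stele and EndoP arrays. Its differences were 1.86 ± 0.19 in EpiC, 0.83 ± 0.19 in Peri, -1.88 ± 0.19 in EndoP and -1.05 ± 0.19 in Stele. UGT76B1, which glucosylates isoleucic acid, salicylate and N-hydroxypipecolic acid and so tunes defence, was higher in EpiC by 1.75 ± 0.28 and in Peri by 1.24 ± 0.28 and lower in EndoP (difference -1.86 ± 0.28). Its EpiC arrays stood at 10.29 to 11.41 and its Peri arrays at 8.47 to 12.20, against 6.41 to 10.13 in EndoP. The group means of UGT71C1 correlated with those of UGT72E2 at r = 0.95 and with those of UGT76B1 at r = 0.94, the 2 highest values of all 820 pairs. These genes were grouped by their calls on the same arrays, which by itself favours a high r. UGT74D1, which acts on auxin, was higher in EpiC by 1.24 ± 0.19 and in Peri by 0.67, and lower in LRC (difference -1.05) and Stele (difference -0.68).

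In the third pattern 4 of 41 members (9.76%) were lower in both LRC and EpiC and higher in EndoP, a share equal to the background of 9.74% of all probe sets tested and so no result about the family. UGT71B6, which glucosylates abscisic acid, had lowest, median and highest values of 9.19, 9.83 and 10.05 in EndoP, 7.54, 9.33 and 10.05 in Peri and 7.45, 9.52 and 9.92 in Stele. In LRC these were 5.99, 6.67 and 10.06 and in EpiC 5.84, 7.13 and 9.30. The ranges overlap because some LRC and EpiC arrays were high, such as LRC in continuous nitrate replicate 3 at 10.06. Some Peri and Stele arrays were also low, such as Peri in KCl replicate 3 at 7.54 and Stele in continuous nitrate replicate 2 at 7.45. The difference was 1.55 ± 0.32 in EndoP, -1.55 ± 0.32 in LRC and -1.62 ± 0.32 in EpiC. UGT78D3, a flavonol arabinosyltransferase, was higher in EndoP by 1.41 ± 0.33 and lower in EpiC (difference -1.43) and LRC (difference -0.97), and the same LRC array was its highest there at 10.54. UGT84A4, a relative of enzymes that form hydroxycinnamate glucose esters, was higher in EndoP by 1.42 ± 0.36 and in Stele by 1.09 ± 0.36. UGT71C3, which acts on methyl salicylate, was higher in EndoP by 1.00 and in Stele by 0.91. Group means of UGT71B6, UGT78D3 and UGT84A4 correlated with each other at r = 0.91 to 0.92. They too were grouped by calls on these same arrays, which favours a high r.

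Members of 1 subfamily often differed from each other. The 3 genes of subfamily 78 are flavonoid glycosyltransferases that attach different sugars. UGT78D1, the rhamnosyltransferase, was higher in LRC by 1.73 ± 0.21 (adjusted p = 6.11e-09) and lower in Stele (difference -1.50), with LRC arrays at 7.03 to 9.26, against 4.64 to 5.94 in Stele. The 2 populations did not overlap. UGT78D2, the glucosyltransferase, was higher in EpiC by 0.79 and lower in Stele (difference -0.61), and UGT78D3 had the inner pattern. In subfamily 72, UGT72E3, also a monolignol glucosyltransferase, was higher in EpiC by 0.49 and in EndoP by 0.44, where UGT72E1 and UGT72E2 were lower. In subfamily 71, UGT71C1 and UGT71C3 had differences of opposite sign in EpiC, EndoP and Stele. The abscisic acid enzymes UGT71B6 and UGT71C5 were both higher in EndoP and lower in LRC, UGT71C5 with differences of 0.54 and -0.44. UGT71B8 of the same subfamily was called in no population.

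Among members higher in LRC and in no other population were UGT80B1, a sterol glucosyltransferase (1.09 ± 0.18, adjusted p = 5.77e-06), and UGT72B3 (1.00 ± 0.15), which was also lower in Stele (difference -0.49). In LRC, UGT80B1 followed the replicate number. In KCl, transitory and continuous nitrate it read 8.19, 7.91 and 8.07 in replicate 2 and 7.19, 6.66 and 6.13 in replicate 3. Replicate 1 read 6.45, 5.53 and 5.98. These values and the nitrate values of replicate 3 lay within the range of the other populations compared, which reached 6.72 in Peri. The 9 members called in no population were UGT71B8, UGT71C4, UGT76C1, UGT76C2, UGT84A1, UGT84A3, UGT84B2, UGT85A3 and UGT85A4. They include both cytokinin N-glucosyltransferases (UGT76C1 and UGT76C2), although UGT84A1 passed the F test over all populations (adjusted p = 0.0207). Of listed genes of the same pathways with a probe set of their own, HCT and CCR2, a transferase and a reductase of the monolignol pathway, were both higher in EndoP, by 1.45 and 1.13, and both lower in LRC (differences -2.09 and -1.39). Both were also higher in Peri, by 0.79 and 1.03. They were 2 of 17 listed, as the others had no probe set that could be named. Flavonoid synthesis had 1 of 11 (DFR, not called in any population) and the 27 listed genes of UDP-sugar supply had none.

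The directions rest in part on the scaling. With the values as deposited, without quantile normalization, members in LRC were 12 higher and 12 lower, in EpiC 11 and 6, in EndoP 9 and 10, in Peri 13 and 1 and in Stele 2 and 20. Over all probe sets called the share of higher ones was 46.4% quantile normalized and 34.2% as deposited in LRC, 49.3% and 22.5% in EpiC, 48.5% and 75.6% in EndoP, and 42.7% and 66.3% in Peri. With the KCl arrays alone 15 members were called in LRC, 7 in EpiC, 13 in EndoP, 5 in Peri and 19 in Stele, against 23.6%, 4.21%, 16.3%, 4.05% and 20.5% of all probe sets in that order.

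The next comparisons asked how nitrate, given continuously or transitorily and averaged, moved the family in each population, against KCl. By limma with Benjamini-Hochberg adjustment no member was called in LRC, EpiC, EndoP or Stele. The background was 0.0156% of all probe sets in LRC (0.0104% higher and 0.00519% lower), 0.597% in EpiC (0.13% higher and 0.467% lower), 0% in EndoP and 0.0363% in Stele, all of them higher. At an unadjusted p under 0.05 the members numbered 2 in LRC, 2 in EpiC, 1 in EndoP and 0 in Stele. Averaged over the 5 populations 0 of 41 passed, against 0.727% of all probe sets (0.338% higher and 0.389% lower), while 9 had an unadjusted p under 0.05. The 3 listed nitrate sentinel genes with a probe set, HHO1, PGD1 and PGD3, all rose in that average, by 1.68, 1.30 and 1.85. Of the members, UGT76D1 had the smallest p in the average (difference -0.45 ± 0.14, adjusted p = 0.191), UGT71C1 stood at -0.68 ± 0.23 (adjusted p = 0.249) and UGT73B5 at -0.41 ± 0.15 (adjusted p = 0.33). UGT72E2, UGT76B1 and UGT78D3 stood at -0.36, -0.02 and 0.44. No member's nitrate effect differed between populations by the F test of the interaction (0 of 41, smallest adjusted p = 0.0997, 7 at an unadjusted p under 0.05), against 0.0156% of all probe sets. In EpiC, where 6 of 6 green tissue markers fell with nitrate (median -2.54), members had a median difference of 0.01. The EpiC treatments rest on the sample titles, because the source field of all 9 EpiC samples, KCl ones included, names continuous nitrate.

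In Peri 10 of 41 members fell with nitrate and none rose, against 10.9% of all probe sets lower and 12.4% higher. The share of members called in either direction (24.4%) was near the background of 23.3%. Nitrate and KCl arrays did not overlap in 6 of 41 members, against 17.7% of all probe sets. UGT71C1 read 6.92, 8.56 and 6.92 in continuous nitrate and 7.66, 8.71 and 9.95 in transitory nitrate, against 9.01, 10.07 and 10.98 in KCl. Only 1 nitrate array reached above the lowest KCl array, and the difference was -1.90 ± 0.51 (adjusted p = 0.0184). UGT87A2, known in connection with flowering time, read 8.03 to 8.86 in the nitrate arrays, against 9.90 to 9.97 in KCl, without overlap (difference -1.47 ± 0.51, adjusted p = 0.0367). UGT78D2 (-1.34 ± 0.38), UGT85A2 (-1.30 ± 0.39) and UGT73B5 (-1.28 ± 0.33) followed. The others that fell were UGT73B4, UGT73D1, UGT88A1, UGT71C2 and UGT85A4, with differences of -1.22, -1.22, -1.05, -0.93 and -0.91. UGT72E2 (-0.81, adjusted p = 0.0832), UGT76B1 (-0.94, adjusted p = 0.156) and UGT76D1 (-0.59, adjusted p = 0.146) were not called, nor was UGT78D3 at 1.23 (adjusted p = 0.124).

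These falls depend on the scaling and on single arrays. The 6 Peri nitrate arrays had an array signal, the mean of the linear values trimmed by 2% at each end, of 176.7 to 372.1, all above the KCl arrays at 173 to 176.5, and the part of that shift in the result was not tested beyond the fits given here. With the values as deposited 0 of the 10 were called. There 3 other members rose instead, UGT78D3 (1.75, adjusted p = 0.0497), UGT84B2 (1.18, adjusted p = 0.0158) and UGT85A3 (0.85, adjusted p = 0.039), chosen for naming after their values were seen. Over all probe sets the median difference was -0.14 quantile normalized and 0.40 as deposited, and the share of higher calls 53.4% and 97.8%. The members' median was -0.60 and -0.01, so it lay below that of all probe sets under both scalings. With array signal as a covariate 0 members were called, as was the case in a fit of the Peri arrays alone, where no probe set passed. Leaving out Peri KCl replicate 1, Peri KCl replicate 3 or Peri transitory nitrate replicate 1 also left 0.

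**Figure D3:**
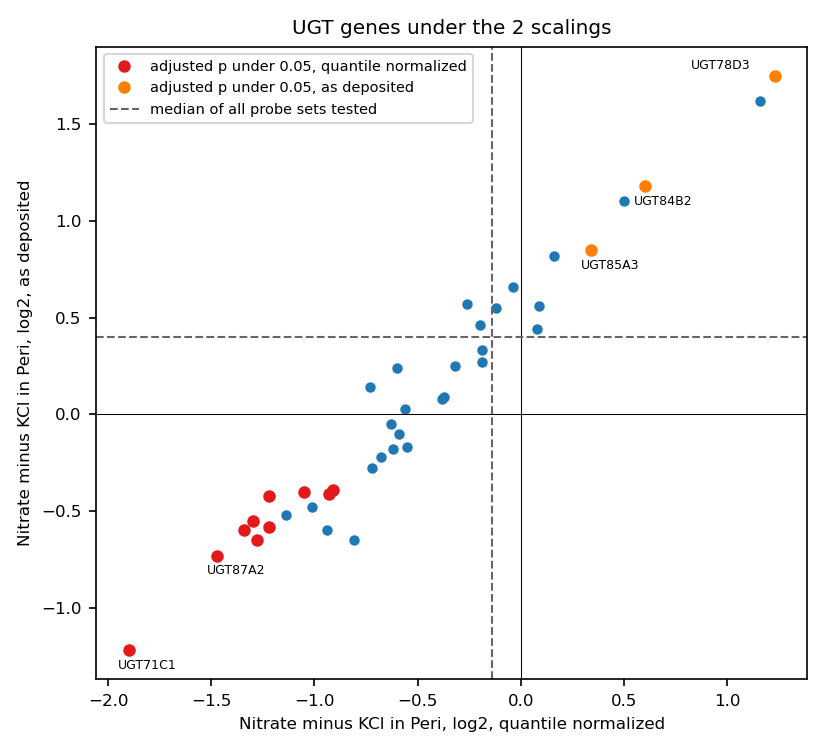
Nitrate minus KCl in Peri for the 40 UGT genes tested under both scalings, with quantile normalized values on the x axis and values as deposited on the y axis (log2). Red points passed the test quantile normalized, orange points as deposited, and dashed lines are the medians of all probe sets tested. The 10 red genes lie below 0 on both axes, and none of them passed with the values as deposited.

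The MSX groups asked what changes in Peri when assimilation of ammonium is blocked. With nitrate present 7 of 41 members rose with MSX (17.1%) and none fell, against 6% of all probe sets higher, 3.08% lower and 9.08% in either direction. They were UGT73B5, UGT71C1, UGT73D1, UGT73C7, UGT76D1, UGT73B4 and UGT71B8, so 4 of the 5 members of subfamily 73 tested rose. In all 7 the MSX arrays lay above every array in continuous nitrate without MSX, as they did for 96.5% of all probe sets called higher. Among all members tested the arrays did not overlap in 16 of 41 (39%), against 27.7% of all probe sets. The continuous nitrate arrays also belong to the nitrate side of the Peri nitrate comparison. Low values there therefore favour both a fall with nitrate and a rise with MSX. UGT73B5, UGT71C1, UGT73D1 and UGT73B4 were called in both comparisons. UGT73B5 read 9.70, 9.37 and 8.95 with MSX, against 6.79, 6.86 and 6.04 without it. This rise of 2.78 ± 0.38 had the smallest adjusted p of the family, 3.52e-05. UGT71C1 read 9.91, 9.88 and 10.55 with MSX, against 6.92, 8.56 and 6.92 without it (2.65 ± 0.58, adjusted p = 0.00401). UGT73D1 read 9.70, 8.69 and 8.95 with MSX, against 6.79, 6.97 and 5.64 without it (2.64 ± 0.46, adjusted p = 0.000495). UGT76D1, which glucosylates dihydroxybenzoic acids formed from salicylate, read 8.98, 8.13 and 8.12 with MSX, against 6.26, 6.84 and 5.71 without it (2.14 ± 0.37, adjusted p = 0.000445).

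UGT73C7 read 9.29, 8.14 and 6.62 with MSX, against 6.15, 5.82 and 5.49 without it, and its spread with MSX was wide. Its rise of 2.20 ± 0.53 (adjusted p = 0.00772) was not called without MSX replicate 1. UGT73B4 rose by 1.93 ± 0.43 and UGT71B8 by 0.97 ± 0.29. The remaining genes named throughout, UGT72E2 (1.15, adjusted p = 0.0682), UGT76B1 (1.40, adjusted p = 0.126) and UGT78D3 (0.15, adjusted p = 0.906), were not called. All 7 rises were also called with the values as deposited, and 6 with array signal as a covariate. In a fit of these 6 arrays alone 3 were called, and without MSX replicate 1 there were 4. Over all probe sets the share of higher calls was 66.1% quantile normalized and 30.2% as deposited. The GAPDH 3′ minus 5′ difference, a sign of RNA integrity, was 0.846 to 1.333 with MSX and nitrate, against 0.04 to 0.654 with nitrate, and its part in the result was not tested. Of the 11 glutathione S-transferases tested, enzymes that like the UGTs conjugate small molecules, 4 rose, GSTU22 by 2.98 ± 0.57 (adjusted p = 0.00128).

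**Figure D4:**
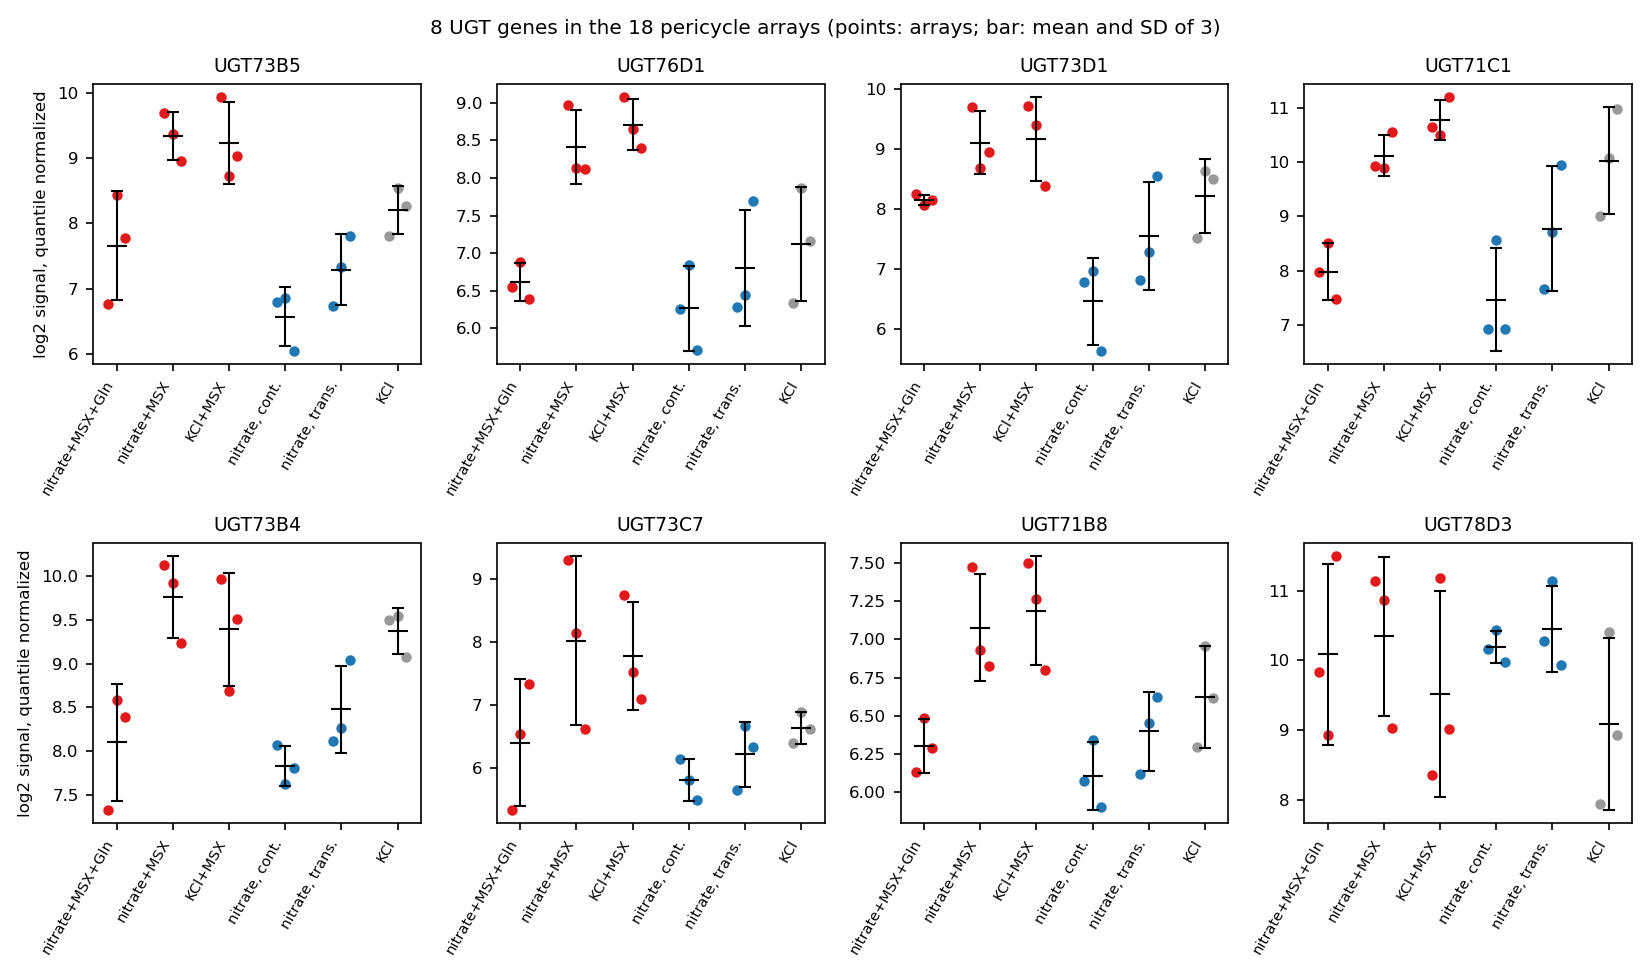
Log2 signal (y axis, quantile normalized) of 8 UGT genes in the 18 Peri arrays, by treatment (x axis). Points are arrays, red with MSX, blue with nitrate and grey with KCl, and bars are the mean and SD of 3. In all but UGT78D3 the nitrate and MSX arrays lie above the continuous nitrate arrays.

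Without nitrate 0 of 41 members were called with MSX by limma (8 at an unadjusted p under 0.05), against 0.0675% of all probe sets, 0.0312% higher and 0.0363% lower. UGT76D1 came nearest, with 9.07, 8.65 and 8.40 in KCl and MSX, against 6.34, 7.86 and 7.16 in KCl (1.59 ± 0.37, adjusted p = 0.0696). Its arrays did not overlap, as was so in 7 of 41 members and 19.4% of all probe sets. UGT73B5 stood at 9.94, 8.72 and 9.03, against 7.81, 8.55 and 8.26, also without overlap (1.03 ± 0.38, adjusted p = 0.387). The GAPDH difference again stood apart, at 1.319 to 1.483 with MSX, against 0.389 to 0.668 without it. The MSX effect with nitrate minus that without nitrate was called for no member (0 of 41, 5 at an unadjusted p under 0.05) and for 0% of all probe sets. For UGT73B5 it was 1.75 ± 0.54 (adjusted p = 0.648), for UGT73B4 1.91 ± 0.61 and for UGT71C1 1.89 ± 0.83. In the presence of MSX, nitrate against KCl gave 0 calls among the members (1 at an unadjusted p under 0.05) and 0% of all probe sets.

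With glutamine added to nitrate and MSX 2 of 41 members fell and none rose, against 0.696% of all probe sets called. UGT76D1 read 6.56, 6.89 and 6.39 with glutamine, against 8.98, 8.13 and 8.12 without it, and fell by 1.80 on the log2 scale (SE 0.37, adjusted p = 0.0106). UGT73B5 read 6.77, 8.43 and 7.78 with glutamine, against 9.70, 9.37 and 8.95 without it, and fell by 1.68 (SE 0.38, adjusted p = 0.02). Neither overlapped. UGT71C1 read 7.97, 8.50 and 7.47 with glutamine, against 9.91, 9.88 and 10.55 without it, and its difference of -2.14 ± 0.58 was not called (adjusted p = 0.0706). UGT73B4 stood at -1.66 (adjusted p = 0.0515), and UGT72E2 (-0.85), UGT76B1 (-1.22) and UGT78D3 (-0.26) were not called. This comparison and that of MSX with nitrate share the arrays with nitrate and MSX, so high values there raise the one and lower the other. The calls rested on single arrays. None was left without glutamine replicate 1 or 3 or without MSX replicate 1, and none in a fit of the 6 arrays alone. With array signal as a covariate 4 members fell.

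Roots and protoplasts gave the background of the digestion that precedes every sort. Protoplasts differed from whole roots at 3.5 h in 13 of 36 members, 3 higher and 10 lower, against 13% and 15.3% of all 17152 probe sets tested (28.3% in all). Protoplasts in transitory nitrate differed from roots incubated without enzymes in 10 members, 2 higher and 8 lower, against 8.62% and 8.43% (17.1% in all). Arrays did not overlap in 11.9% of all probe sets (4 of 36 members) in the first comparison. In the second they did not overlap in 35.6% (12 of 36 members). The 2 comparisons share no array. They shared 9 members, 69.2% of the first list and 90.0% of the second, all with the same sign. Over all probe sets the shared calls made up 55.5% of the first list and 92.1% of the second, also all with the same sign. Cell RNA came from a column kit and whole-root RNA from TRIzol, so extraction and digestion cannot be told apart here.

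All 3 monolignol glucosyltransferases were lower in protoplasts in both comparisons. UGT72E2 read 8.25, 7.81 and 8.78 in continuous nitrate protoplasts and 7.42, 7.58 and 8.95 in KCl protoplasts, against 9.81, 9.49 and 9.80 in nitrate and 9.59, 9.18 and 9.85 in KCl in roots at 3.5 h. Every protoplast array lay below every root array, and the difference was -1.49 ± 0.25 (adjusted p = 0.000218). In transitory nitrate it read 7.57, 7.73 and 8.21 in protoplasts, against 9.18, 9.26 and 9.14 in incubated roots (-1.36 ± 0.35, adjusted p = 0.0128). UGT72E1 had differences of -1.03 ± 0.25 and -1.46 ± 0.35, and UGT72E3 of -0.42 and -0.51. CCR2 of the same pathway was lower as well (-1.55, adjusted p = 0.000562, and -1.64, adjusted p = 0.00985), whereas HCT was not called (-0.41 and -0.59).

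UGT74B1, which makes the glucosinolate core, had differences of -0.92 ± 0.15 (adjusted p = 0.00017) and -0.95 ± 0.21. UGT76D1 had differences of -0.62 ± 0.11 and -1.19 ± 0.16 (adjusted p = 0.000527 and 0.000197), with all protoplast arrays below all root arrays in both comparisons. UGT71C5 and UGT84A4 were lower in both. UGT71C1 was lower than in 3.5 h roots (-0.81, adjusted p = 0.0199) and UGT73D1 than in incubated roots (-1.31, adjusted p = 0.0258). UGT73B4 was higher in both, at 7.44, 7.92 and 8.56 in transitory protoplasts, against 7.24, 6.46 and 6.60 in incubated roots, without overlap (1.21 ± 0.30). Against 3.5 h roots it was higher by 1.03 ± 0.21, with 1 protoplast value in the range of the roots. UGT74D1 was higher by 0.36 and 0.51, and UGT71B1 by 0.37 against 3.5 h roots only (adjusted p = 0.0391). UGT73B5, UGT76B1 and UGT78D3 were called in neither. With all 30 one-cycle arrays 8 members were called against 3.5 h roots and 3 against incubated roots. In a fit of the compared arrays alone 5 were called against incubated roots, and without incubated transitory replicate 2 or 3 also 5.

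**Figure D5:**
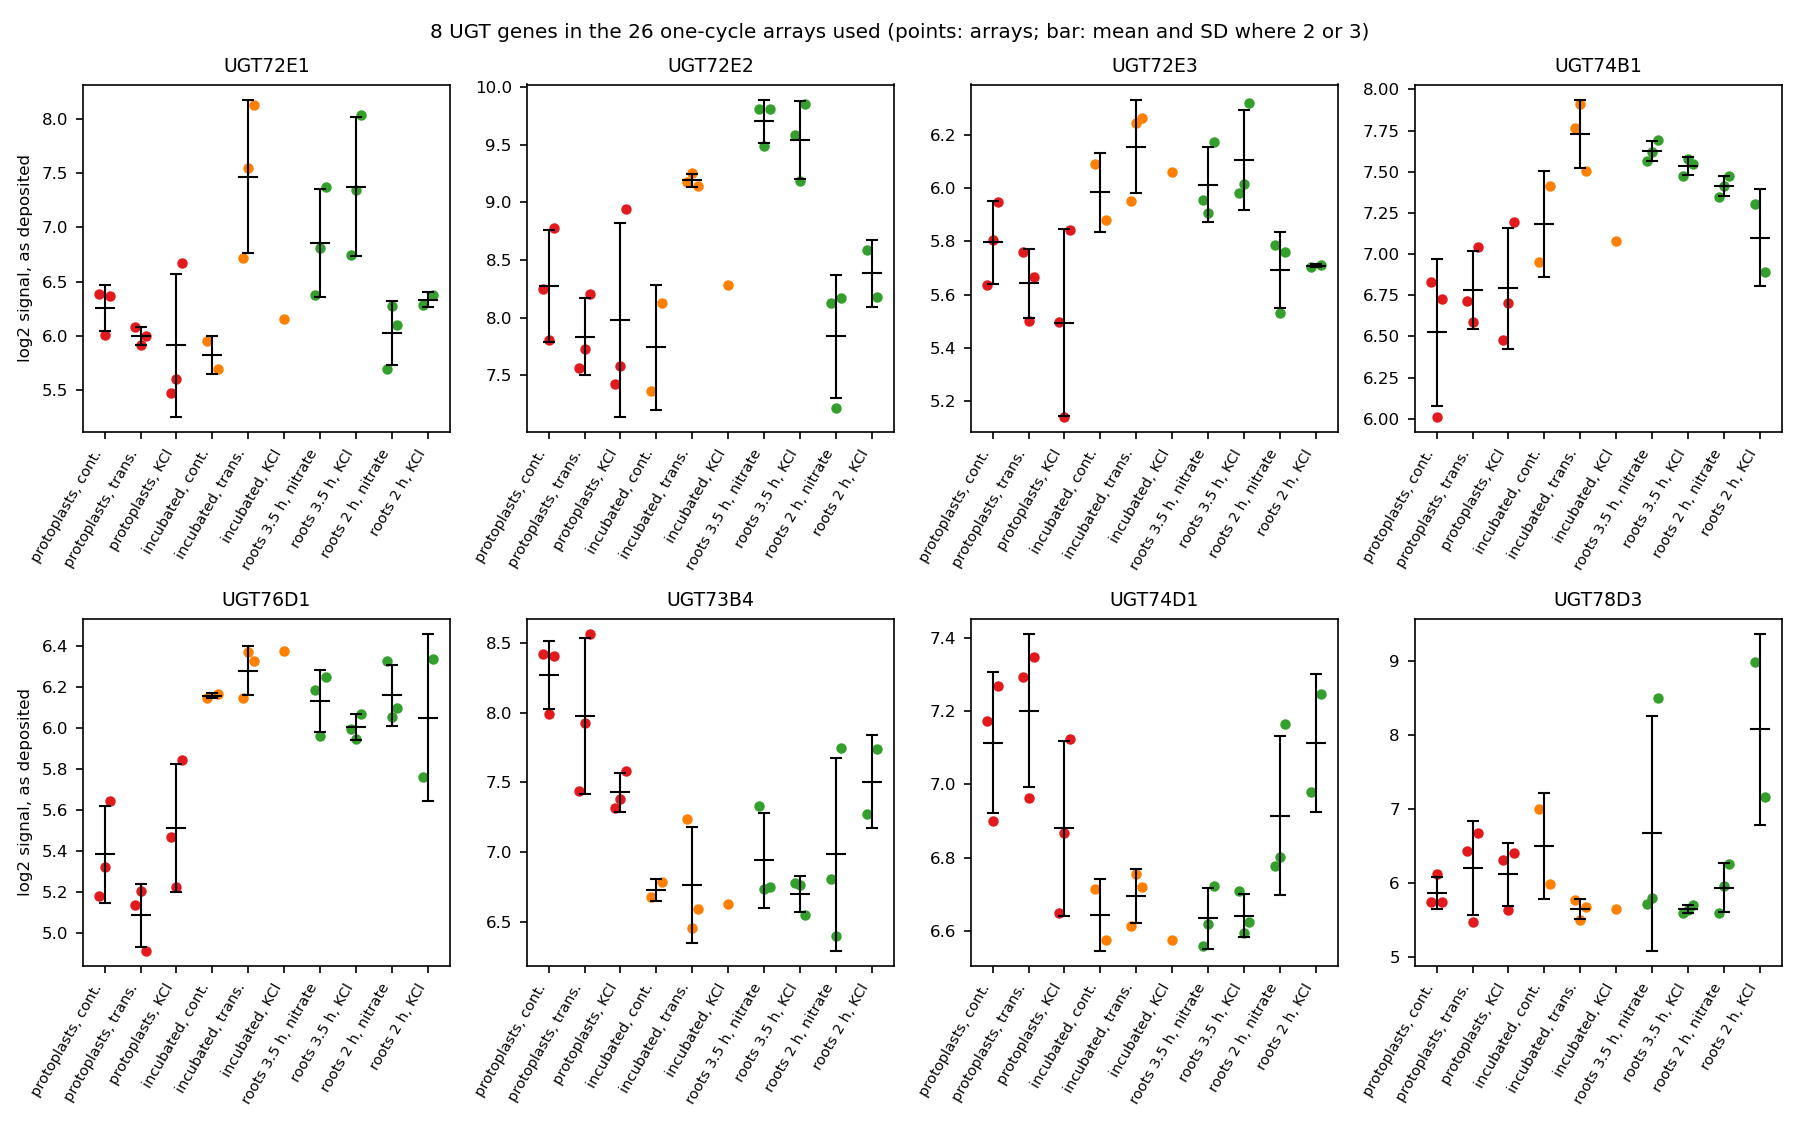
Log2 signal (y axis, as deposited) of 8 UGT genes in the 26 one-cycle arrays used, by group (x axis). Points are arrays, red for protoplasts, orange for incubated roots and green for directly frozen roots, and bars are the mean and SD where a group has 2 or 3 arrays. UGT72E2, UGT74B1 and UGT76D1 are lower in protoplasts than in 3.5 h roots, UGT73B4 and UGT74D1 are higher, and UGT72E2 is higher in 3.5 h than in 2 h nitrate-treated roots.

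Nitrate called no member in protoplasts, in roots at 2 h or in roots at 3.5 h (0 of 36 by limma, and 2, 1 and 0 at an unadjusted p under 0.05), and in each case 0% of all probe sets. Among nitrate-treated roots UGT72E2 was higher at 3.5 h than at 2 h, the only member of 36 called, against 0.356% of all probe sets. It read 9.81, 9.49 and 9.80 at 3.5 h, against 8.12, 7.22 and 8.17 at 2 h, without overlap (1.86 ± 0.35, adjusted p = 0.0194). Arrays of these 2 groups did not overlap in 9 of 36 members and 25.5% of all probe sets. The call held without 2 h replicate 3 and was lost when any other of the 6 arrays was left out. In KCl it read 9.59, 9.18 and 9.85 at 3.5 h, against 8.59 and 8.18 at 2 h, a pair of groups that was not tested. In incubated roots, also not tested for nitrate, UGT72E2 read 7.36 and 8.13 in continuous nitrate and 9.18, 9.26 and 9.14 in transitory nitrate, against 8.28 in KCl. Of these, continuous nitrate replicate 1 had the lowest correlation of the arrays used, 0.738 against 0.837 to 0.927. Its GAPDH 3′ minus 5′ difference was 1.883, against at most 0.621 in the other arrays used.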

How the data were processed

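The authors deposited 1 log2 signal for each probe set and array (0 to 14.46). The scale follows from the values, and software, background correction and normalization are not given in the sources used here. Per the labels' protocols, sorted cells were labelled in 2 cycles and roots and protoplasts in 1 cycle. The 54 two-cycle arrays, with medians 1.04 apart (limit 1), were quantile normalized. The 26 one-cycle arrays used, 0.303 apart, were taken as deposited. One-cycle arrays with a median correlation under 0.7 with the others were left out. A probe set was tested if 3 or more arrays exceeded the set's 40th percentile, with 64 controls left out. The tests were two-sided, from limma 3.58.1 (R 4.3.3) with 1 coefficient per group and eBayes with trend, with Benjamini-Hochberg adjustment over all probe sets tested. They were also run on simulated arrays with independent noise, where not all the differences put in were called, so a member not called may still differ. A single gene with 3 arrays against 3 cannot reach an exact permutation p below 0.1, and limma's p-values draw on variance pooled over groups and moderated across genes. They set each difference against that pooled spread between arrays, and the number of arrays limits the precision. Groups came from the sample titles, which the source field contradicts for EpiC in KCl and in transitory nitrate. Deviations of same-numbered arrays had a median r of 0.013 and 0.003, but single pairs ranged from -0.769 to 0.765 and from -0.432 to 0.877. The tests took all arrays as independent. Named members are up to 4 rises and 4 falls per comparison (6 smallest p for an F test) and UGT71C1, UGT72E2, UGT73B5, UGT76B1, UGT76D1 and UGT78D3; others were named after their values were seen. The members and lists were chosen with earlier results of these data known. Chromosomal neighbours came from the RefSeq table. Figures were drawn with matplotlib 3.10.9 in Python 3.11.15.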

Additional observations from a re-analysis of the deposited data

Results flagged for a closer look

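Nitrate and KCl arrays of whole roots did not overlap in 13.1% of all probe sets at 2 h and in 13.6% at 3.5 h. UGT78D3 was flagged for lacking overlap at both times with differences of opposite sign, neither of them called. At 2 h it read 5.60, 5.96 and 6.26 in nitrate, against 8.98 and 7.17 in the 2 KCl arrays used (difference -2.14, adjusted p = 1). At 3.5 h it read 5.72, 5.80 and 8.51 in nitrate, against 5.60, 5.64 and 5.71 in KCl (difference 1.03, adjusted p = 1), and 1 nitrate array carries that difference. The nitrate effect at 2 h minus that at 3.5 h was -3.16 ± 0.81 and was not called by limma after Benjamini-Hochberg adjustment (adjusted p = 1).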

How the results depend on the processing

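Counts are members called by limma after Benjamini-Hochberg adjustment. With the values as deposited, Peri against the other populations had 14 calls (9 quantile normalized) and nitrate in Peri 3, all higher (10, all lower). Without the EndoP array of low correlation, EndoP had 20 calls, 7 higher and 13 lower (8 and 11 with it), and LRC 28 (25). Nitrate in Peri then had 12 (10) and MSX with nitrate 9 (7). The nitrate effect differed between populations in 0 members and in 1.09% of all probe sets (0.0156%). With all 30 one-cycle arrays, protoplasts against 3.5 h roots had 8, protoplasts against incubated roots 3, and 3.5 h against 2 h in nitrate 0. In fits of the compared arrays alone, nitrate in Peri had 0, MSX with nitrate 3, glutamine 0, protoplasts against incubated roots 5 and 3.5 h against 2 h 0. With 2 settings chosen after seeing the data, array signal as a covariate gave 0 for nitrate in Peri, 1 for MSX without nitrate and 4 for glutamine, and the KCl arrays alone gave 15 in LRC, 7 in EpiC and 5 in Peri. The cause of these moves was not tested. Leaving out 1 array at a time gave 31 to 35 for the F test, 22 to 29 in LRC, 16 to 19 in EpiC, 17 to 21 in EndoP, 6 to 10 in Peri and 15 to 22 in Stele. It gave 0 to 14 for nitrate in Peri, 0 to 4 for its difference between populations, 0 to 1 for MSX without nitrate, 4 to 9 for MSX with nitrate and 0 to 4 for glutamine. Against 3.5 h roots the range was 10 to 17, against incubated roots 5 to 9 (10 without the incubated continuous nitrate array of low correlation), and for 3.5 h against 2 h 0 to 1. The remaining nitrate comparisons stayed at 0. With the replicate number as a block, protoplasts against 3.5 h roots had 14 calls and against incubated roots 12, and every other count was as without it (32 for the F test and 10 for nitrate in Peri). Deviations of same-numbered arrays from their group means had a median r of 0.013 over 459 sorted pairs and 0.003 over 63 one-cycle pairs. Single pairs ranged from -0.769 to 0.765 and from -0.432 to 0.877. Whether same-numbered arrays of 1 population moved together was not tested apart, and the block is common to all populations. Over the alternatives no direction of a called named gene reversed. Their calls held in 2959 checks and were lost in 132, and 26 checks of genes not called gained one. The checks share most of their arrays and are not independent. These totals do not stand for single comparisons such as nitrate in Peri or glutamine.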
